A study of Mus musculus with 6 samples.

Results

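The genes of glycolysis and of the response to low oxygen were followed in W4 mouse embryonic stem cells after 16 days of neural differentiation. They are 40 genes listed by name, and no threshold on a measured value enters the list, although it was drawn up with earlier results of these data known. Of these, 37 were measured by a probe set that carries their symbol alone, among 19938 genes so measured on the arrays. One group was kept throughout with 300 uM sodium valproate (VPA), a drug against epilepsy that also blocks histone deacetylases, and had 3 arrays. The other received only the solvent, phosphate-buffered saline (PBS), and had 3 arrays. Both groups shared the line, the F12-DMEM/Neurobasal medium with B27, N2, bFGF and insulin, the laminin and the day of harvest. The design text calls the arrays of a group biological replicates, all of 1 cell line. The labels call the VPA dose sub-toxic, and the comparison asks which transcripts differ when it is present while neurons form.

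Glycolysis splits glucose into pyruvate in the cytosol and yields a small amount of ATP without oxygen. Pyruvate is then either oxidised in mitochondria or reduced to lactate, and the pyruvate dehydrogenase kinases hold back the oxidative route. When oxygen is short, the prolyl hydroxylases of the Egln family no longer mark the alpha subunits Hif1a and Epas1 for destruction, and these switch on carriers, glycolytic enzymes and genes such as Vegfa and Bnip3. Stem cells and neural progenitors are known for a high rate of glycolysis, and neurons rely more on oxidation.

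With VPA, 14 of the 37 measured genes fell, 5 rose and 18 did not pass the threshold, an adjusted p under 0.05 in limma's moderated test with Benjamini-Hochberg adjustment over all genes. Of the 37, 51.4% were called, 37.8% lower and 13.5% higher, against 29.2% of all 19938 genes, 15.7% lower and 13.6% higher. The share of members that rose was thus near the background. The groups did not overlap for 23 of the 37, 17 of them lower with VPA and 6 higher; of all genes 44.0% did not overlap, 23.8% lower and 20.2% higher. The median change was -0.18 among the 37, and 0.00 over all genes, on the log2 scale. The median size of a change, whatever its sign, was 0.27 against 0.12. Only 1 of the 37, Car9, lay in both groups below 6.155, the 95th percentile of 1027 olfactory receptor genes and a gauge of background signal. In a fit of the genes that reached that gauge in at least 1 group, 21 of the other 36 members were called, against 39.5% of all 14209 such genes. That fit added Hk2 and Pkm, both lower, to the calls. The 29.2% of all genes used below is from the fit of all 19938. Of these, 5729 lay under the gauge in both groups.

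**Figure D1:**
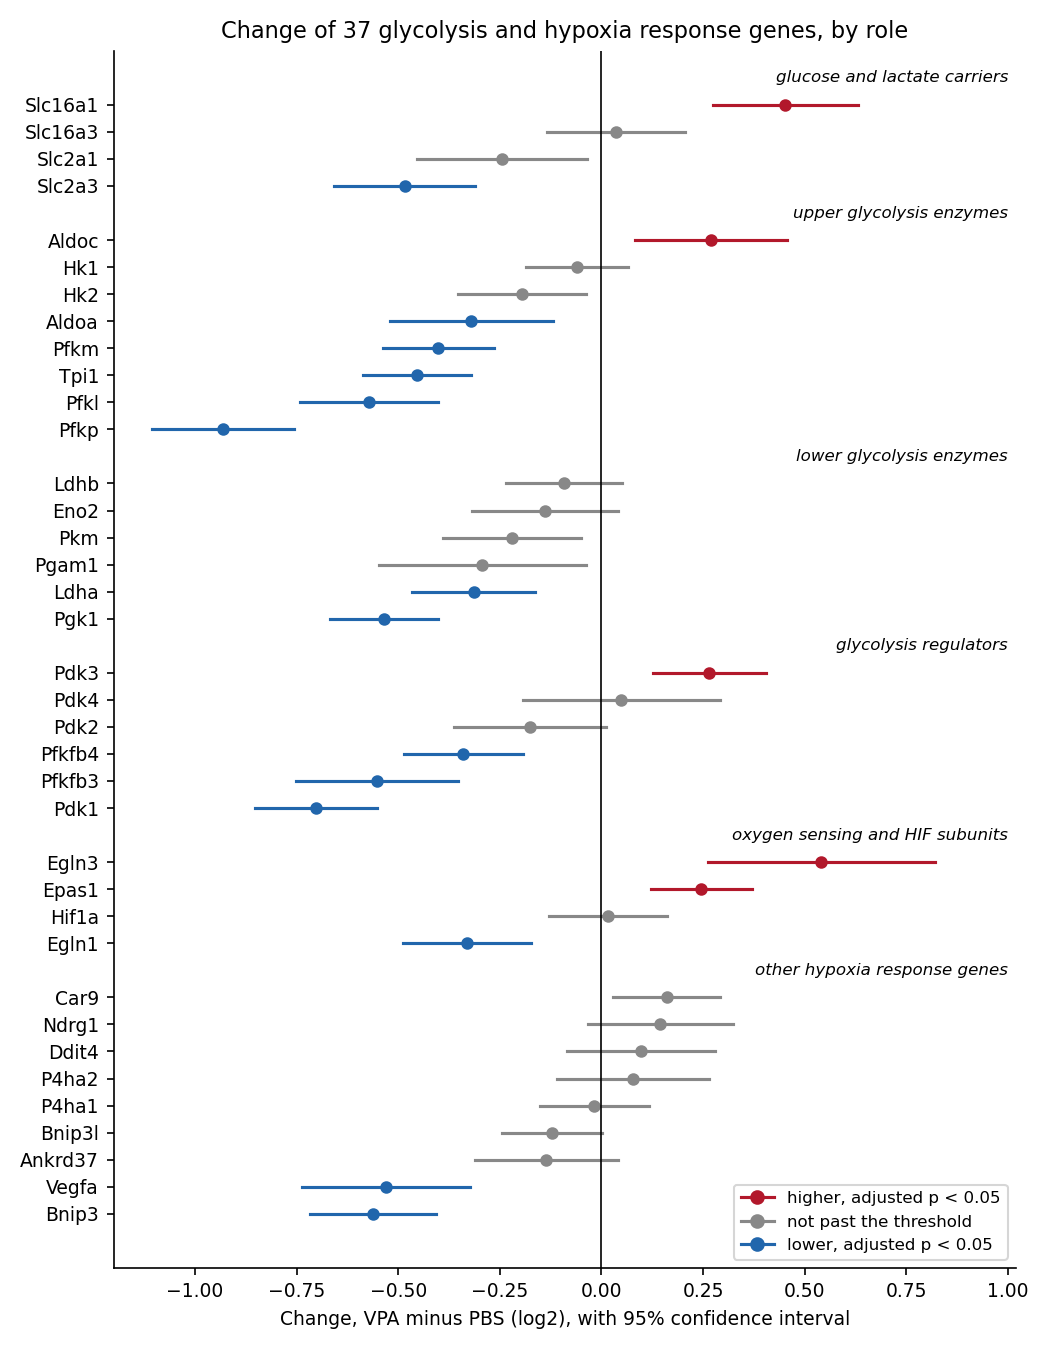
Change of each of the 37 measured genes with VPA against PBS, on the log2 scale on the horizontal axis, with its 95% confidence interval as a bar, grouped by role. Blue genes fell, red genes rose and grey genes did not pass the threshold; the changes run between -0.93 for Pfkp and 0.54 for Egln3.

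The arrays of a group did not all agree. VPA replicate 1 lay at a median absolute difference of 0.12 to 0.13 from the other VPA arrays over all genes, and those lay at 0.07 from each other. Among the 37 genes VPA replicate 1 was above both other VPA arrays for 25 (67.6%), against 36.2% of all genes. Without that array 19 members fell and 5 rose, in a fit that called 41.0% of all genes. Within the PBS group, replicate 1 lay below the PBS mean for 34 of the 37 genes and replicate 3 above it for 35, against 53.5% and 54.9% of all genes. The median of these deviations was -0.08 in PBS replicate 1 and 0.05 in PBS replicate 3, smaller than those of VPA replicates 2 and 3, at -0.20 and -0.28, but close in size to that of VPA replicate 1, at -0.09. Leaving out PBS replicate 1 left 3 members higher and 14 lower, and leaving out PBS replicate 2 left 2 higher and 13 lower. Those fits called 19.9% and 19.2% of all genes, against 29.2% with all arrays. Of the 19 calls, 13 stood under each of the 16 other ways of fitting, 12 of them lower and 1 higher.

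**Figure D2:**
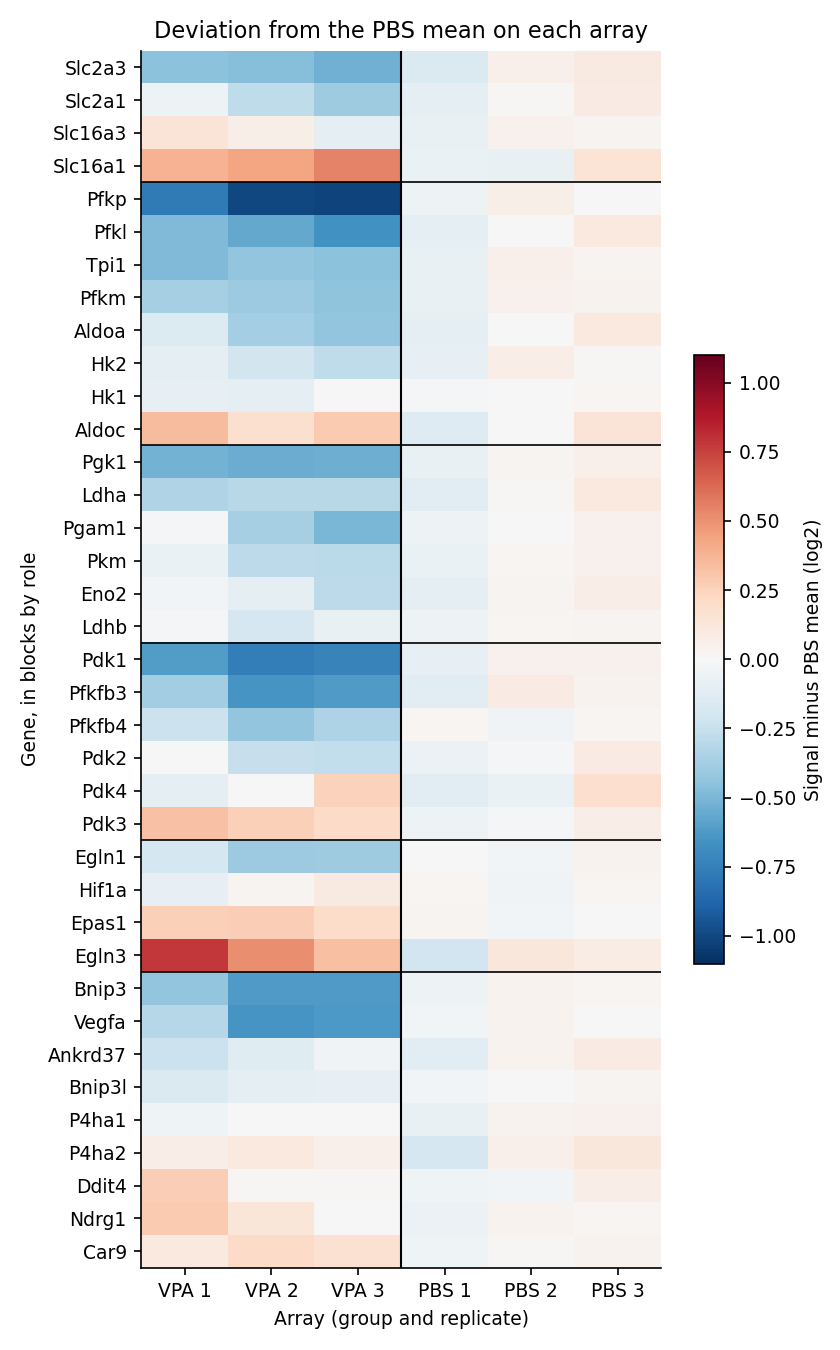
Signal of each of the 37 genes on each array minus its PBS mean, on the log2 scale, with VPA arrays on the left and PBS arrays on the right and genes in blocks by role. The blue of the phosphofructokinase, Pdk1, Pfkfb3, Bnip3 and Vegfa rows is paler in VPA replicate 1 than in VPA replicates 2 and 3.

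Because many of the 40 listed genes, though not all, are known targets of HIF, the 250 bases before the start sites were read for all of them. The bases came from RefSeq (build GRCm38.p6) and were searched for the core motif of HIF, ACGTG or GCGTG, on both strands. Windows were found for 36 of the 40 genes, some with several starts. Some windows of the same gene overlap and hold the same match, as in Aldoa, Eno1 and Pfkm. The shares below are thus of windows that are not independent, not of genes. Slc2a3, Epas1, Bnip3l and Ndrg1 had none. At least 1 core motif lay in 41 of the 51 windows (80.4%), against 38.6% of all 32851 windows. The windows of the listed genes were also richer in G and C, with a median of 61.6% against 52.4%, and both motifs contain CG. The motif was in 17 of 22 windows of genes that fell (77.3%), in 5 of 5 of genes that rose and in 15 of 19 of measured genes that did not pass (78.9%), so its share was close in the genes that fell and in those that did not pass. The palindrome CACGTG, which other factors bind, holds ACGTG on each strand and counts as 2 overlapping matches; it lay in 7 of the 51 windows. The windows below are those of the largest fall (Pfkp), of the fallen genes with 5 matches (Bnip3 and Ldha), of the larger rises (Egln3 and Slc16a1) and of a hypoxia gene with 4 matches that did not pass (Ankrd37). Each is written 5′ to 3′ on the strand of its gene, with matches in capitals.
Pfkp: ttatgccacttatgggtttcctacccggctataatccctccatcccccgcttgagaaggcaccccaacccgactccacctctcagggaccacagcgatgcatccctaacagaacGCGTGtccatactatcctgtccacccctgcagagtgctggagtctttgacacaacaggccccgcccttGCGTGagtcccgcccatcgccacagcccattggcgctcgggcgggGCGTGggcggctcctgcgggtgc
Bnip3: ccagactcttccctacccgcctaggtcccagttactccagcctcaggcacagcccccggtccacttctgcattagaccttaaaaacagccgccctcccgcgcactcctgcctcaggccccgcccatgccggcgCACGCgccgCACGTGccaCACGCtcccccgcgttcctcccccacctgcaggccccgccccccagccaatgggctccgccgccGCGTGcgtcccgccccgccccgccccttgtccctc
Ldha: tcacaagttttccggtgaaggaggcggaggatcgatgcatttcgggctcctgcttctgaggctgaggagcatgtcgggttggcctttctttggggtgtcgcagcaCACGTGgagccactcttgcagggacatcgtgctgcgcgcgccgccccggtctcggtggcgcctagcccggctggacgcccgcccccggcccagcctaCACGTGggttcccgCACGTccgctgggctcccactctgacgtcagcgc
Egln3: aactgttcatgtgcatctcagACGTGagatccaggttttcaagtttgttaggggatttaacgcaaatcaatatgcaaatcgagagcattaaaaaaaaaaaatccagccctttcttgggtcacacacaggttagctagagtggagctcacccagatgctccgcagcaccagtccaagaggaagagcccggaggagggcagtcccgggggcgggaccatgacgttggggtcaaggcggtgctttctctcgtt
Slc16a1: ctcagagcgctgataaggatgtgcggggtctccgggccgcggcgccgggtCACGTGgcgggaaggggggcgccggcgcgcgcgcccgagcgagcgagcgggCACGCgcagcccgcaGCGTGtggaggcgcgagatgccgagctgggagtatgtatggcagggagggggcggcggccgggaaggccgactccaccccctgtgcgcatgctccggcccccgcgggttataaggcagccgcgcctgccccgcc
Ankrd37: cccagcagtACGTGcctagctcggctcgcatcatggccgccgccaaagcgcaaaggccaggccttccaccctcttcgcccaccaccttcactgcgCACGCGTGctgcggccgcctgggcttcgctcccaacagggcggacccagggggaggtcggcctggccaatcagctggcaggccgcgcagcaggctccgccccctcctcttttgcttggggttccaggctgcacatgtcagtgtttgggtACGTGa
The Pfkp window is chr13:6648772-6649021 on the minus strand and holds 3 matches, all GCGTG. That of Bnip3 is chr7:138909507-138909756, minus strand, and that of Ldha is chr7:46845554-46845803, plus strand. Of the 5 matches in this Ldha window, 4 come from CACGTG found at 2 places, and of the 5 of Bnip3, 2 come from CACGTG at 1 place. Ldha has another window, chr7:46846832-46847081, with only 1 match, a GCGTG, so its count depends on the start site. The Egln3 window is chr12:54203875-54204124, minus strand, with 1 match. That of Slc16a1 is chr3:104638414-104638663, plus strand, and that of Ankrd37 is chr8:45999851-46000100, minus strand. The letters say nothing about whether a factor was bound there.

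Entry of glucose and exit of lactate run through carriers in the cell membrane, and of the 4 listed 1 fell and 1 rose; without VPA replicate 1, 2 fell and 1 rose. Slc2a3, the high-affinity glucose transporter typical of neurons, measured 9.60, 9.57 and 9.51 with VPA, against 9.89, 10.10 and 10.15 with PBS. Its groups did not overlap, and it changed by -0.48 (SE 0.08, adjusted p = 0.00156). Slc2a1, the glucose transporter of most cells and of brain vessels, measured 10.08, 9.85 and 9.74 with VPA, against 10.03, 10.15 and 10.23 with PBS. VPA replicate 1 lay among the PBS arrays, the change of -0.24 (SE 0.09, adjusted p = 0.0788) did not pass, and without that array it was -0.34 (adjusted p = 0.00595). Slc16a1, a monocarboxylate carrier that moves lactate and pyruvate in both directions, rose. It measured 7.43, 7.48 and 7.60 with VPA, against 6.98, 6.97 and 7.20 with PBS, with no overlap, a change of 0.45 (SE 0.08, adjusted p = 0.00254). Slc16a3, the carrier that lets lactate out of glycolytic cells and is a HIF target, measured 9.94, 9.86 and 9.70 with VPA, against 9.72, 9.85 and 9.83 with PBS. Those groups overlapped and the 95% confidence interval of the change ran between -0.13 and 0.21.

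Upper glycolysis turns glucose into triose phosphates and held the largest single fall, that of Pfkp. Of its 8 enzymes measured, 5 fell and 1 rose, a share of 75.0% against 29.2% of all genes, with a median change of -0.36. Hk1 and Hk2 encode the hexokinases that trap glucose in the cell, Hk1 the form of brain and Hk2 an inducible form. At its brightest probe set Hk1 measured 12.27, 12.27 and 12.36 with VPA, against 12.34, 12.36 and 12.38 with PBS, a change of -0.06 (SE 0.06, adjusted p = 0.468). Its other probe set had means of 9.20 with VPA and 9.51 with PBS, and changed by -0.31 (SE 0.07, adjusted p = 0.00941 over all probe sets), so the answer for Hk1 depended on the probe set. Hk2 measured 7.45, 7.35 and 7.27 with VPA, against 7.46, 7.63 and 7.57 with PBS. Its groups did not overlap, but by a margin of 0.01, and the change of -0.20 (SE 0.07, adjusted p = 0.0648) did not pass; without VPA replicate 1 it was -0.24 (adjusted p = 0.0156).

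Phosphofructokinase catalyses the committed step of glycolysis, and its 3 subunit genes all fell. Pfkp, the platelet-type subunit that brain also uses, measured 10.17, 9.95 and 9.93 with VPA, against 10.89, 11.01 and 10.94 with PBS. It was 1.91-fold lower with VPA, with means of 10.02 ± 0.13 with VPA and 10.95 ± 0.06 with PBS (log2, SD, n = 3 each), a change of -0.93 (SE 0.08, adjusted p = 4.47e-05). The gap between the highest VPA array and the lowest PBS array was 0.71. Pfkl, the liver-type subunit, measured 9.39, 9.32 and 9.21 with VPA, against 9.77, 9.88 and 9.99 with PBS. Its groups were apart and it changed by -0.57 (SE 0.07, adjusted p = 0.00057), 1.49-fold lower. Pfkm, the muscle-type subunit, measured 9.46, 9.43 and 9.39 with VPA, against 9.74, 9.87 and 9.87 with PBS, a change of -0.40 (SE 0.06, adjusted p = 0.0012). Of the 3, Pfkm had the smallest measured fall.

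The aldolases split the sugar bisphosphate that phosphofructokinase makes, and the 2 listed genes moved in opposite directions. Aldoa, the general form, measured 11.80, 11.57 and 11.51 with VPA, against 11.84, 11.95 and 12.05 with PBS. Its lowest PBS value was just above its highest VPA value, that of VPA replicate 1, and it changed by -0.32 (SE 0.09, adjusted p = 0.025). Aldoc, the form of brain and a marker of astrocytes and Purkinje cells, measured 10.82, 10.66 and 10.77 with VPA, against 10.33, 10.48 and 10.62 with PBS, a change of 0.27 (SE 0.08, adjusted p = 0.0376). Both calls were fragile. That of Aldoa was lost without PBS replicate 2 (adjusted p = 0.0759), PBS replicate 3 (0.099), VPA replicate 2 (0.0773) or VPA replicate 3 (0.0801). That of Aldoc was lost without PBS replicate 1 (adjusted p = 0.14), PBS replicate 2 (0.103), VPA replicate 1 (0.0581) or VPA replicate 3 (0.0922). With unmoderated variances neither passed (adjusted p = 0.128 for Aldoa and 0.144 for Aldoc). Tpi1, the enzyme that interconverts the triose phosphates, fell by 0.45 (SE 0.06, adjusted p = 0.000545). Gpi1, which isomerises glucose phosphate, was not analysed here.

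**Figure D3:**
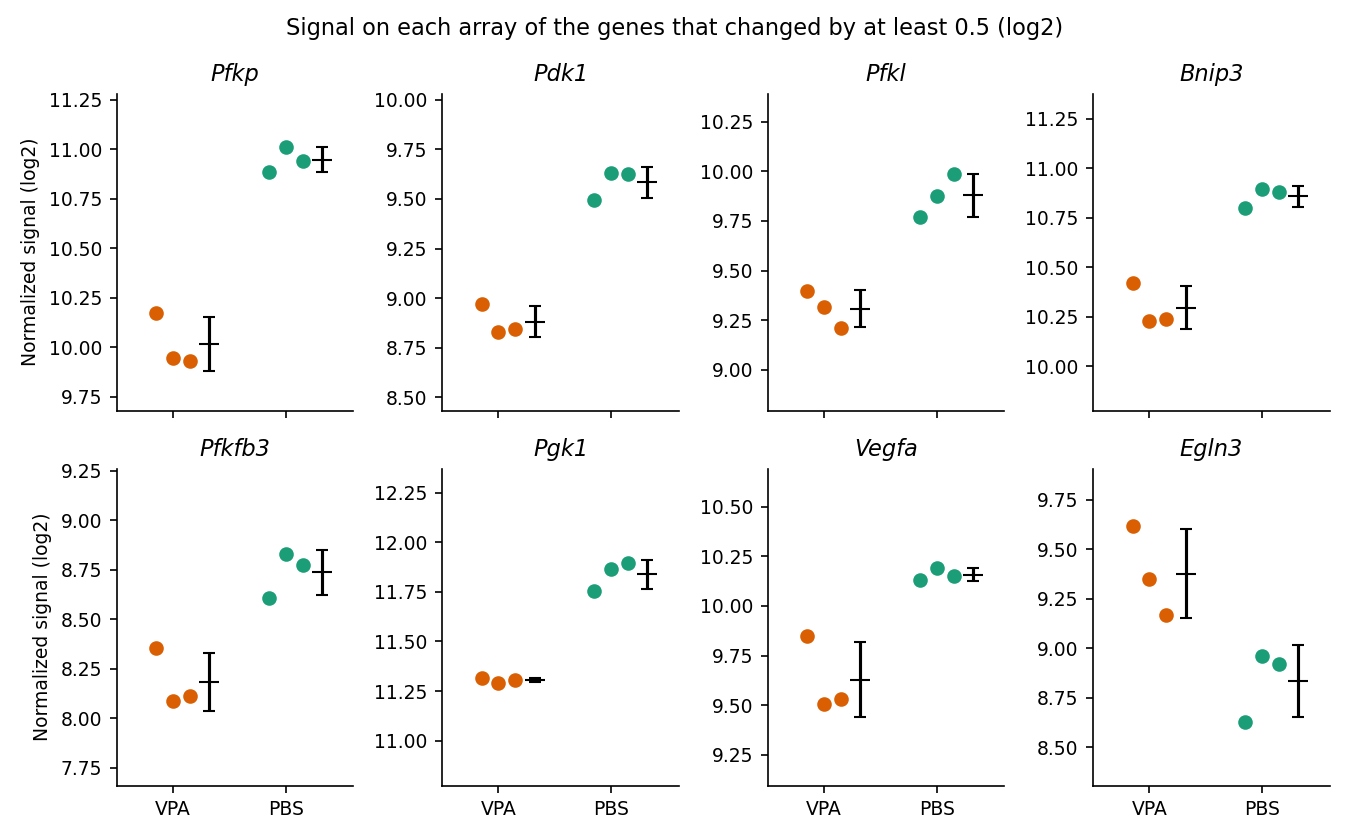
Normalized log2 signal on each array of the 8 genes that passed the threshold with a change of at least 0.5 on the log2 scale, VPA on the left of each panel and PBS on the right. Points are arrays and the bar beside them is the mean with the SD of 3 arrays; each panel spans 1.6 log2 units. Pfkp, Pdk1, Pfkl, Bnip3, Pfkfb3, Pgk1 and Vegfa lie lower with VPA and Egln3 lies higher, with no overlap.

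In the lower steps, with lactate dehydrogenase counted among them, 2 of the 6 enzymes measured fell, a share of 33.3%, near the 29.2% of all genes. All 6 changes were negative, with a median of -0.26. Without VPA replicate 1, 4 of the 6 fell, in a fit that called 41.0% of all genes. Pgk1, the kinase of the first ATP-yielding step, measured 11.32, 11.29 and 11.31 with VPA, against 11.76, 11.87 and 11.90 with PBS. It was 1.45-fold lower with VPA, with the VPA arrays spanning 0.02, a change of -0.53 (SE 0.06, adjusted p = 0.000209). Pgk1 has 3 probe sets, 2 of them with identical values, and the third changed by -0.52. Pgam1, the mutase that follows, changed by -0.29 (SE 0.11, adjusted p = 0.0841) and did not pass. Its other 2 probe sets, with equal values, changed by -0.31 and passed narrowly (adjusted p = 0.0495 over all probe sets), so the call of Pgam1 too depended on the probe set. In VPA replicate 1 Pgam1 stood 0.42 above the average of VPA replicates 2 and 3, and without that array the change was -0.43 (adjusted p = 0.000892).

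Eno2, the neuron-specific enolase, measured 9.03, 8.96 and 8.78 with VPA, against 8.97, 9.09 and 9.13 with PBS. The groups overlapped and the change of -0.14 (SE 0.08, adjusted p = 0.233) did not pass. Its ubiquitous partner Eno1 was not analysed here. Pkm, the pyruvate kinase gene of muscle, brain and proliferating cells, changed by -0.22 (SE 0.07, adjusted p = 0.0555) and did not pass. Its groups were only just apart, with a highest VPA value of 10.911 and a lowest PBS value of 10.916. Its other probe set changed by -0.14 (SE 0.06, adjusted p = 0.116 over all probe sets) and did not pass either. Without VPA replicate 1 the change at the brightest probe set was -0.29 (adjusted p = 0.00357). Pkm passed under 5 further alternatives, with adjusted p between 0.00231 with array weights and 0.0436 with the mean of its probe sets. Its splice forms are not told apart at this level. Gapdh could not be given either, since each of the 25 probe sets that name it also names other genes.

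Lactate dehydrogenase interconverts pyruvate and lactate, with Ldha the subunit that favours lactate and Ldhb the one that favours pyruvate. Ldha measured 11.63, 11.66 and 11.66 with VPA, against 11.85, 11.98 and 12.07 with PBS. The groups were apart and it changed by -0.31 (SE 0.07, adjusted p = 0.00749), 1.24-fold lower. Ldhb measured 10.08, 9.91 and 10.01 with VPA, against 10.04, 10.12 and 10.13 with PBS. It overlapped between groups, and its change of -0.09 (SE 0.06, adjusted p = 0.315) did not pass, with a 95% confidence interval between -0.24 and 0.05. Whether the changes of Ldha and Ldhb differ from each other was not tested.

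Genes that set the pace of the pathway and the fate of pyruvate changed as well, with 3 of 6 lower and 1 higher. The share called was 66.7%, against 29.2% of all genes. Pfkfb3, which makes the strongest activator of phosphofructokinase and is a HIF target, measured 8.35, 8.08 and 8.11 with VPA, against 8.61, 8.83 and 8.77 with PBS. It was 1.47-fold lower, a change of -0.55 (SE 0.09, adjusted p = 0.00166), and its related isoenzyme Pfkfb4 fell by 0.34 (SE 0.06, adjusted p = 0.00437). The 4 pyruvate dehydrogenase kinases did not move as one. Pdk1, a HIF-induced kinase, measured 8.97, 8.83 and 8.85 with VPA, against 9.49, 9.63 and 9.63 with PBS. It was 1.63-fold lower, a change of -0.70 (SE 0.07, adjusted p = 9.03e-05), the second largest of the 37. Pdk2, a widely expressed form, measured 9.64, 9.39 and 9.38 with VPA, against 9.58, 9.62 and 9.73 with PBS. VPA replicate 1 lay among the PBS arrays, and the change of -0.18 (SE 0.08, adjusted p = 0.15) did not pass; it was -0.26 without that array (adjusted p = 0.00947). Pdk3 measured 9.31, 9.25 and 9.20 with VPA, against 8.93, 8.97 and 9.06 with PBS. It rose by 0.27 (SE 0.06, adjusted p = 0.011), but did not pass when PBS replicate 1 (adjusted p = 0.0548) or PBS replicate 2 (0.0509) was left out. Pdk4, the form induced by fasting in muscle and liver, measured 6.25, 6.34 and 6.60 with VPA, against 6.23, 6.27 and 6.53 with PBS. It was dim and did not differ beyond its spread, with a change of 0.05 (SE 0.11, adjusted p = 0.779).

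The oxygen sensors and HIF subunits themselves showed 2 rises and 1 fall among 4 genes, a share of 75.0% against 29.2% of all genes. Hif1a, whose protein is set mainly by its breakdown, measured 10.76, 10.88 and 10.95 with VPA, against 10.86, 10.81 and 10.86 with PBS. The groups overlapped, and the 95% confidence interval of its change ran between -0.13 and 0.16. Epas1, the alpha subunit typical of endothelium and stroma, measured 6.90, 6.91 and 6.84 with VPA, against 6.67, 6.61 and 6.64 with PBS. It was low but apart in the 2 groups, with a change of 0.25 (SE 0.05, adjusted p = 0.00904). It did not pass when PBS replicate 2 was left out (adjusted p = 0.051). Egln1, the main prolyl hydroxylase for HIF, measured 9.87, 9.66 and 9.67 with VPA, against 10.06, 10.03 and 10.10 with PBS. It changed by -0.33 (SE 0.07, adjusted p = 0.0073), and with unmoderated variances it just missed the threshold (adjusted p = 0.051). Egln3, a hydroxylase that HIF itself induces, measured 9.62, 9.35 and 9.17 with VPA, against 8.63, 8.96 and 8.92 with PBS. It was 1.46-fold higher with VPA, the largest rise of the 37, at 0.54 (SE 0.12, adjusted p = 0.0105). The spread among the VPA arrays was wide, at an SD of 0.23, and with unmoderated variances the rise did not pass (adjusted p = 0.108).

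Among the other hypoxia response genes 2 of 9 fell, 0 rose and 7 did not pass in limma's test, a share near that of all genes, and the median change was -0.02. Bnip3, a mitochondrial protein that promotes mitophagy, measured 10.42, 10.23 and 10.24 with VPA, against 10.80, 10.89 and 10.88 with PBS. It was 1.48-fold lower, a change of -0.56 (SE 0.07, adjusted p = 0.000383), and its other probe set changed by -0.50. Vegfa, the growth factor of blood vessels, measured 9.85, 9.51 and 9.53 with VPA, against 10.13, 10.19 and 10.15 with PBS. It was 1.44-fold lower, a change of -0.53 (SE 0.09, adjusted p = 0.00243), with VPA replicate 1 above the other VPA arrays by 0.33. Bnip3l, a relative of Bnip3, changed by -0.12 (SE 0.05, adjusted p = 0.13).

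The remaining genes of that group did not pass the threshold. P4ha1 and P4ha2 encode catalytic subunits of collagen prolyl hydroxylase. P4ha1 measured 9.06, 9.11 and 9.10 with VPA, against 9.02, 9.14 and 9.15 with PBS, and P4ha2 measured 7.26, 7.30 and 7.24 with VPA, against 7.01, 7.25 and 7.32 with PBS. The groups overlapped for both, with changes of -0.02 (SE 0.06, adjusted p = 0.855) and 0.08 (SE 0.08, adjusted p = 0.53). Ddit4, an inhibitor of mTOR signalling, changed by 0.10 (SE 0.08, adjusted p = 0.409), and Ndrg1, a stress-responsive gene, by 0.14 (SE 0.08, adjusted p = 0.209). Ankrd37, a HIF target that encodes an ankyrin-repeat protein, changed by -0.14 (SE 0.08, adjusted p = 0.236). Car9, a carbonic anhydrase at the cell surface that is a classic marker of hypoxia, had means of 5.46 with VPA and 5.30 with PBS. Both lay below the background gauge, so its level was not told apart from background.

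The rest of these pathways was read from 8 further lists. Of 14 other glycolytic isoforms 3 fell and 1 rose, a share of 28.6% against 29.2% of all genes, with 7 of the 14 below the background gauge in both groups. Eno3, the muscle enolase, changed by -0.48 (SE 0.07, adjusted p = 0.000737), Pfkfb2 by -0.45 (SE 0.06, adjusted p = 0.00059), the bisphosphoglycerate mutase gene Bpgm by -0.24 (SE 0.06, adjusted p = 0.0157) and the ADP-dependent glucokinase gene Adpgk by 0.28 (SE 0.07, adjusted p = 0.0134). Of 16 genes of gluconeogenesis and glycogen 6 rose and 3 fell, a share of 56.2%, with a median change of 0.04. In both groups 6 of the 16 lay below the background gauge, among them Pygl, which is counted as a rise. Gbe1, the glycogen branching enzyme, changed by -0.96 (SE 0.09, adjusted p = 7.9e-05), Ppp1r3c, which directs phosphatase to glycogen, by 0.56 (SE 0.09, adjusted p = 0.00179), and the phosphoglucomutase genes Pgm2 and Pgm1 by 0.49 (SE 0.07, adjusted p = 0.000623) and -0.36 (SE 0.08, adjusted p = 0.0123).

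In the pentose phosphate pathway, which makes NADPH and ribose from glucose, 3 of 11 genes rose and 0 fell in limma's test. They were Prps2 at 0.28 (SE 0.09, adjusted p = 0.0475), H6pd at 0.27 (SE 0.09, adjusted p = 0.0454) and Rpe at 0.21 (SE 0.06, adjusted p = 0.0191). Of 9 genes for the entry of pyruvate into mitochondria 2 fell, Pdp1, a pyruvate dehydrogenase phosphatase, at -0.25 (SE 0.06, adjusted p = 0.0174) and the E2 subunit gene Dlat at -0.18 (SE 0.06, adjusted p = 0.0443). Of 19 genes of the tricarboxylic acid cycle 2 fell, Sucla2 at -0.24 (SE 0.08, adjusted p = 0.0453) and Idh3b at -0.20 (SE 0.06, adjusted p = 0.0261), and 0 rose. The shares called were 27.3%, 22.2% and 10.5%, near or below the 29.2% of all genes, with median changes of 0.07, -0.10 and -0.03. Without VPA replicate 1 the pentose phosphate list had 2 higher and 1 lower, and 1 gene of the tricarboxylic acid cycle fell.

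Of 19 other glucose and monocarboxylate carriers 3 rose and 2 fell, a share of 26.3%, near the 29.2% of all genes. Slc2a10 changed by 0.69 (SE 0.07, adjusted p = 0.000154), Slc2a12 by -0.64 (SE 0.07, adjusted p = 0.000182), the insulin-responsive glucose transporter gene Slc2a4 by 0.44 (SE 0.09, adjusted p = 0.00618) and Slc16a6 by 0.34 (SE 0.06, adjusted p = 0.0039). Of 16 other components of the HIF pathway 2 rose and 2 fell, a share of 25%, below the 29.2% of all genes, and without VPA replicate 1 the falls were 4. Hif3a, whose product can restrain the other alpha subunits, changed by 0.56 (SE 0.12, adjusted p = 0.00708) and in VPA replicate 1 stood 0.43 above the average of VPA replicates 2 and 3. The beta subunit gene Arnt2, the form of neurons, changed by -0.30 (SE 0.07, adjusted p = 0.00891) and Arnt, the general form, by 0.22 (SE 0.06, adjusted p = 0.0156). The ubiquitin ligase gene Siah1a changed by -0.22 (SE 0.06, adjusted p = 0.0255).

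A wider list of 40 measured hypoxia response genes held many changes in each direction, 11 higher and 15 lower, a share of 65.0% against 29.2% of all genes, with a median change of -0.04. The largest were rises, of Tgfb3 by 1.48 (SE 0.09), the binding protein gene Igfbp3 by 1.38 (SE 0.10), Tmem45a by 1.24 (SE 0.10) and the collagen cross-linking enzyme gene Lox by 1.05 (SE 0.09). The PBS mean of Tmem45a lay below the gauge, so the size of its rise is not defined. Named after their values were seen, the largest falls were those of the nuclear receptor gene Rora at -0.74 (SE 0.06), Wsb1 at -0.55 (SE 0.06), the lipoprotein receptor gene Vldlr at -0.48 (SE 0.06) and Ero1a, an oxidase of the endoplasmic reticulum, at -0.46 (SE 0.06). Also named after their values were seen, Hmox1, a heme oxygenase that oxidative stress induces, rose by 0.75 (SE 0.12), and Hilpda and Ak4, each a HIF target, differed by 0.01 in each case and did not pass (adjusted p = 0.908 and 0.917). Without VPA replicate 1 the counts of this list were 11 higher and 18 lower, where 41.0% of all genes were called.

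**Figure D4:**
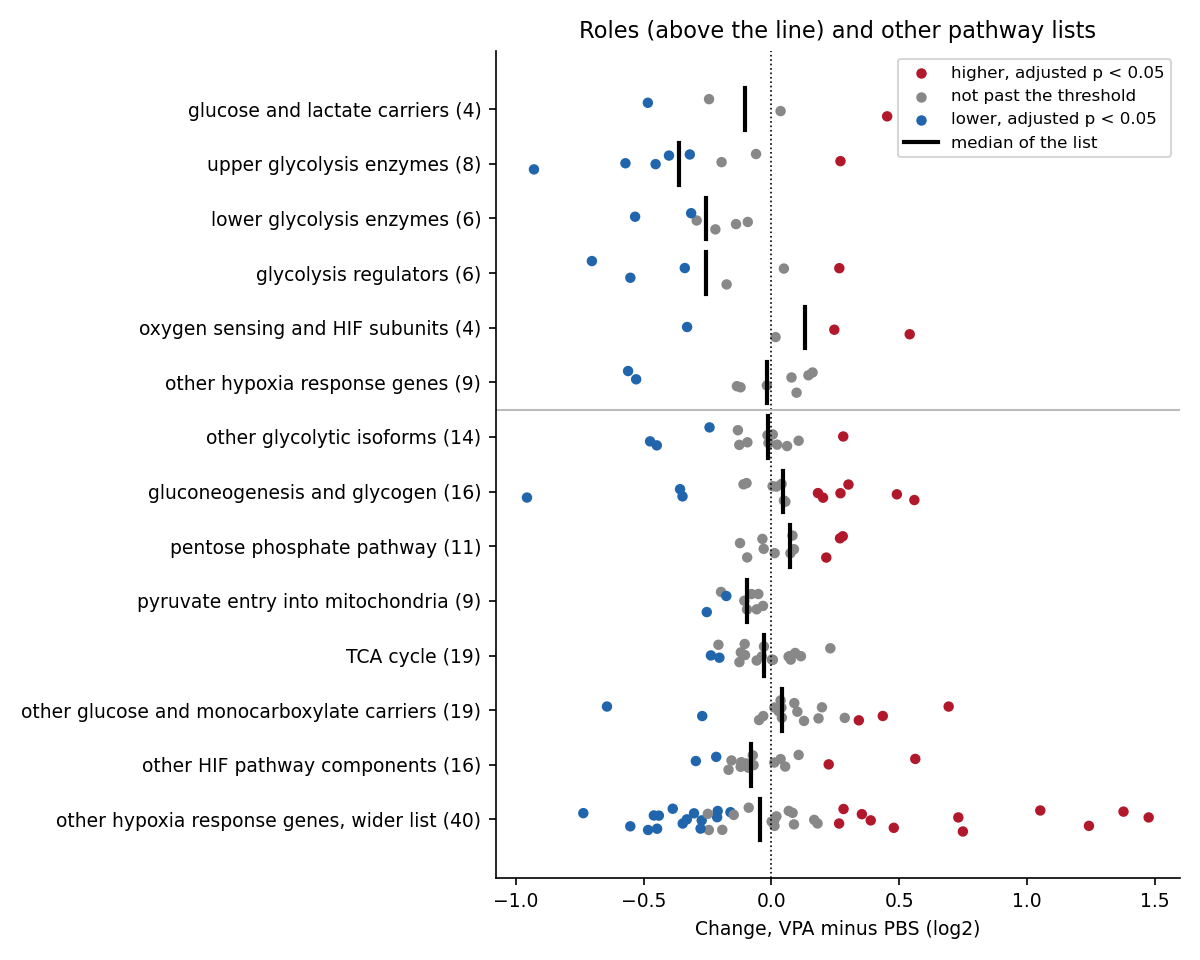
Change of each measured gene with VPA against PBS, on the log2 scale on the horizontal axis, for the 6 roles above the grey line and the 8 further lists below it, with the number measured in parentheses. Points are genes, red where higher, blue where lower and grey where the threshold was not passed, and the black bar is the median of the list, lowest for upper glycolysis enzymes at -0.36.

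Markers of several cell types differed between the same arrays, where 13.6% of all genes rose and 15.7% fell. All 10 markers of fibroblasts and matrix rose, with a summed log2 level of 96.3 to 98.0 with VPA and 79.1 to 81.8 with PBS. Of 10 skeletal and cardiac muscle markers 8 rose (75.3 to 78.9 with VPA, 64.7 to 65.4 with PBS). Of 7 endothelial markers 6 rose (48.0 to 48.9 with VPA, 42.6 to 43.4 with PBS), and of 9 cell cycle markers 8 rose (85.1 to 86.0 with VPA, 81.2 to 82.6 with PBS). Of 10 neuron markers 7 fell and 2 rose (107.7 to 108.0 with VPA, 108.2 to 108.8 with PBS). Of 7 astrocyte markers 3 fell (50.3 to 50.6 with VPA, 51.0 to 51.6 with PBS), of 6 oligodendrocyte markers 3 fell and 1 rose, and of 9 neural progenitor markers 2 rose and 1 fell. All 10 neuron markers were above the gauge in both groups. Of the astrocyte markers 3 lay below it in both groups, as did 1 endothelial marker. Several other endothelial markers and several muscle markers had PBS means below it, so those summed levels hold background signal. Of 7 pluripotency markers 6 lay below it in both groups and 1 rose, and of 5 blood cell markers 4 lay below it and 0 were called by limma. The part of these cell types in the changes of the glycolysis and hypoxia genes was not tested, and in such cultures fewer cells of a type and less RNA per cell cannot be told apart.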

How the data were processed

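The labels' protocols state Trizol extraction of total RNA and biotin labelling by the Affymetrix whole transcript sense target assay. The authors deposited 1 normalized log2 signal per probe set and array; base 2 was inferred from the range of 2.5 to 13.89 and array medians of 6.99 to 7.03. Partek 6.5 and mm9 are tools and builds per the submitters' processing notes, which assign them no role. How background was corrected and arrays normalized is not given in the sources used. Values normalized between arrays make each change relative to other genes.

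Of 35556 probe sets, GEO's platform annotation gave 1 symbol to 21789, several to 1621 and none to 12146. Symbols were updated by Entrez ID through RefSeq (21698 matched). Each gene was read at its brightest probe set (mean of 6 arrays). VPA was compared with PBS by limma 3.58.1 in R 4.3.3 (lmFit, eBayes, no covariates), adjusted over all 19938 genes; an exact permutation test of 3 against 3 cannot go below p = 0.1. SE is the moderated standard error. The fit was also run on simulated arrays with independent noise and few changed genes. These data differ from that setting, so no conclusion is drawn from that run. For arrays, their number limits the precision.

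The genes and lists were chosen with earlier results of these data known. Every measured member is named; array values are given for changes of at least 0.5 past the threshold and for related genes; of each further list, the 4 called genes with the largest change are named; marker lists are given as counts. The correlation of deviations from the group means between arrays with the same number was -0.02 to 0.02, so the replicate numbers were not used as pairs.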

Additional observations from a re-analysis of the deposited data

How the results depend on the processing

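Quantile normalization, centring of arrays on their medians, testing of all probe sets and the replicate block changed none of the calls of the 37 members, which stayed at 14 lower and 5 higher. With quantile normalization the split over all genes turned, to 3147 higher and 2671 lower from 2702 and 3123. The median change was then -0.13 among the members and 0.02 over all genes. The replicate numbers share no source in the labels, and with them as a block 5410 genes were called in all. Array weights gave 8917 genes called, 44.7% of all genes against 29.2% in the main fit, 4342 of them higher. In that fit 11 glycolysis enzymes, lactate dehydrogenase counted among them, were lower in place of 7. Without moderation of the variances 3731 genes were called (18.7%), 1631 of them higher. There 3 members were higher, and 0 glycolysis enzymes. At an adjusted p under 0.01, 2 members were higher, and 13 lower. Leaving out 1 array at a time gave 3836 to 8173 genes called (19.2% to 41.0%), 1778 to 3949 higher and 2058 to 4224 lower. It gave 15 to 24 members called, 2 to 5 higher and 13 to 19 lower. Among the enzymes of glycolysis it gave 0 to 1 higher and 6 to 10 lower, against 1 and 7; the lone rise was that of Aldoc. No member's call turned its direction. Calls were gained without VPA replicate 1 by 6 members (Slc2a1, Hk2, Pgam1, Pkm, Pdk2 and Car9), 5 of them lower. The causes of these differences were not tested. The 3 arrays a group limit the precision.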
